A study of Mus musculus with 24 samples.

Results

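The daily time course of livers that lack both Rev-erb receptors (double knockout, DKO) consisted of 12 arrays, out of 24 in the series, that the sample titles name as DKO. The arrays were taken at 6 times of day, ZT0, ZT4, ZT8, ZT12, ZT16 and ZT20, where ZT is the time in hours after lights on. Each time had 2 arrays of the same RNA, which the labels call technical replicates, so that they were averaged to 6 values, out of 12 in the series. DKO mice carried the Reverb alpha/beta alleles together with Alb Cre, a recombinase driven by the albumin promoter, and are labelled Alb Cre+. This promoter is active in hepatocytes, so that other liver cells are expected to keep both genes. Wild-type (WT) mice were the same Reverb alpha/beta line labelled Alb Cre-, and served here to share the estimate of the spread and to test differences in rhythm. All mice were males of 20 weeks on a c57Bl6/J background, and the tissue was whole liver. The question was which transcripts still varied over the day in DKO liver, with which phase and by how much. The sources used here do not state how many animals stand behind each RNA, so the p-values measure only the spread around a daily curve, part of which may be technical.

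The circadian clock of the liver is a loop of transcription. BMAL1 (from the gene Arntl) and CLOCK bind E-box sequences and activate the Per and Cry genes, whose proteins return to the nucleus and inhibit them. The Rev-erb receptors, Nr1d1 and Nr1d2, form a further loop by repressing Arntl, Clock, Npas2 and Nfil3, in competition with the activating ROR receptors, which bind the same sites. Output regulators such as DBP and TEF pass the rhythm on through D-box sequences to metabolic genes, and feeding, hormones and body temperature can impose daily rhythms of their own.

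The 12 DKO arrays had median raw signals of 277 to 341 units and 34.8 to 38.1% of probes detected. The arrays of a time correlated at 0.990 to 0.992, and the median SD of a gene between the arrays of a time was 0.137 on the log2 scale, against 0.204 between times. ZT0, ZT4, ZT8 and ZT12 lay on slide 1 and ZT16 and ZT20 on slide 2, so a difference between these sets of times cannot be told apart from a difference between slides. Of 7 hepatocyte markers 6 were measured, and Ttr, Apoa1, Cyp2e1 and Trf lay near the top of the scale at all 6 times, while the Alb probe was detected on only 1 of 12 arrays and gives no check. The ZT0 sample stood apart from the others: its SD from the mean of the other times was 0.435, against 0.286 to 0.332 for the others. The 3 measured of 8 neutrophil markers lay on average 2.44 log2 units higher at ZT0 than at the other times, with a log2 summed intensity of 12.48 at ZT0 and 9.37 to 10.90 elsewhere. The corresponding difference was 1.08 for 7 of 10 Kupffer cell and macrophage markers (14.77 against 13.49 to 13.93), 0.96 for 2 of 7 erythroid markers (16.20 against 14.16 to 15.08) and 0.55 for 7 of 9 endothelial markers (14.71 against 14.03 to 14.24). Of the 2 erythroid markers only Hba-a1 was highest at ZT0, at 16.11 against 13.79 to 14.90 elsewhere. The other was highest at ZT16, so the erythroid difference rests on 1 gene. The neutrophil markers Ngp, Camp, Elane, Mpo and Retnlg were not among the genes tested. The part of these cells in any result below was not tested, and in whole liver a change in cell number cannot be told apart from a change in RNA per cell. Amplitudes without ZT0 are given for many of the genes named below.

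Several clock genes had a daily profile in DKO liver, although none passed the test of a rhythm, and their promoters are shown first because the E-box is the sequence that clock activators bind. Among 6 measured clock repressors and 6 measured outputs, 7 genes met a rule on the daily range and on the phase. Their highest time lay at least 2-fold above the lowest, with arrays that did not overlap, and their fitted peak between ZT9 and ZT15. They were Ciart, Per1, Per2, Dbp, Tef, Usp2 and Alas1. The peak of Per1, at ZT 9.47, had an SE of 3.8 h, so its place among the 7 is uncertain. Of all genes, 14.4% met the same rule on the daily range at any phase, and 25.8% had a fitted peak between ZT9 and ZT15. The share of all genes that met both was not counted. RefSeq promoter windows (build GRCm38.p6, 250 bases before to 50 bases after an annotated start) were at hand for 6 of the 7 genes, 9 windows in all. The E-box (CACGTG, the same on both strands) was found in 4 of the 9 windows, in 3 genes, and among all 32851 windows it was found in 7.15%. At least 3 E-boxes were present in 0.0883% of all windows, among them that of Ciart. The core AGGTCA that Rev-erb and ROR receptors bind, searched on both strands, was present in 1 of the 9 windows and in 16.3% of all windows. No window of the 9 held a D-box (TTA, then T or C, then GTAA, both strands), which 1.06% of all windows did. The 4 windows below run 5′ to 3′ on the strand of the gene, with E-boxes and AGGTCA (read as TGACCT on the other strand) in capitals.
Ciart, chr3:95882179-95882478, minus strand: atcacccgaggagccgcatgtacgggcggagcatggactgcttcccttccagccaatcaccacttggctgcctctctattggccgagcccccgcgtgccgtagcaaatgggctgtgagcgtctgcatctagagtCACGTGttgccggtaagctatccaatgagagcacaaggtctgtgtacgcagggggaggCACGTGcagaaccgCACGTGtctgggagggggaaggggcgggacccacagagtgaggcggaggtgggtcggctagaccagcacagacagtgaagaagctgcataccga
Per1, chr11:69098699-69098998, plus strand: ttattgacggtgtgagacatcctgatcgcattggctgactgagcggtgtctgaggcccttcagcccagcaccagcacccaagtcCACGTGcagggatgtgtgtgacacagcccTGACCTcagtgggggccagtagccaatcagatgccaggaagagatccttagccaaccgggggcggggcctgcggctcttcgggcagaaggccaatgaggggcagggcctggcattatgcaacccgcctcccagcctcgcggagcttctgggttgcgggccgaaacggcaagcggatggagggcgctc
Tef, chr15:81802423-81802722, plus strand: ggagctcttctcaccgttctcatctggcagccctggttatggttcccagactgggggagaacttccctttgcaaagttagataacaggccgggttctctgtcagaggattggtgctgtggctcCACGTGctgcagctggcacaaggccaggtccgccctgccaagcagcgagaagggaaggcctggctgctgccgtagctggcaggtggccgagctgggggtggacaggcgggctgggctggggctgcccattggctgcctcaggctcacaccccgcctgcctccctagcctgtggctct
Dbp, chr7:45704997-45705296, plus strand: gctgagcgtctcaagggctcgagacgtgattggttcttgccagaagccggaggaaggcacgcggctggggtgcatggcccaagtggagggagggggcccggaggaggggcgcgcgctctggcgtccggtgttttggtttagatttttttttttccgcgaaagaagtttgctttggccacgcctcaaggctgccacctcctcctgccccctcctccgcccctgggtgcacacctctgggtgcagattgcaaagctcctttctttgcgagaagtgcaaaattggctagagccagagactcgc
The E-boxes of Ciart began 116, 58 and 44 bases before the start, that of Per1 166 bases and that of Tef 127 bases before it, and the Per1 window also held the AGGTCA core 137 bases before the start. A second Tef window, not printed here, held an E-box 138 bases before its start. The window of Dbp held none of the 3 motifs. A match is a run of letters and not a measured binding site.

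Ciart, which encodes a repressor of CLOCK and BMAL1, had values of 7.30, 8.00, 9.72, 9.61, 9.31 and 7.67 from ZT0 to ZT20 (log2 of the normalized intensity, as in all such series below, with an SD between arrays of 0.12). Its ZT8 to ZT16 arrays all lay above every array of ZT0, ZT4 and ZT20. A 24 h cosine fitted to it had an amplitude, the distance from daily mean to peak, of 1.35 ± 0.19 log2 (SE, 6 times) and a peak at ZT 11.4 ± 0.5 h, with a limma adjusted p of 0.132. The peak lay within 0.1 h of that in WT, at ZT 11.3, where the amplitude was 1.94 ± 0.19. A second Ciart probe gave an amplitude of 1.56 and a peak at ZT 10.8 in DKO.

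Dbp, the D-box activator, was at 11.67, 13.68, 14.23, 13.95, 13.61 and 11.80 (SD between arrays 0.07). It was low at ZT20 and ZT0 and high at the 4 times between, with no overlap of arrays, and the highest time was 5.93-fold above the lowest. The fit gave an amplitude of 1.36 ± 0.26 and a peak at ZT 9.87 ± 0.72 h in DKO (limma adjusted p = 0.408), against 3.39 ± 0.26 and ZT 9.82 in WT. The difference in rhythm had an unadjusted p of 0.00109 and a limma adjusted p of 0.385.

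Per2, a core repressor, was at 9.88, 10.20, 11.34, 11.17, 11.69 and 10.65 (SD between arrays 0.08). Its ZT8, ZT12 and ZT16 arrays lay above those of the other times. The amplitude was 0.83 ± 0.28 with a peak at ZT 13.1 ± 1.3 h (limma adjusted p = 0.649), against 1.20 ± 0.28 and ZT 12.9 in WT, and a second Per2 probe gave 0.82 and ZT 12.8. Per1, which also responds acutely to glucocorticoids, was at 8.19, 8.04, 9.56, 8.21, 8.46 and 8.43. It was high at ZT8 alone, so that a cosine described it poorly, with an amplitude of 0.33 ± 0.33 (limma adjusted p = 0.922). The fitted peak of Per1 was at ZT 9.47 ± 3.8 h, and at ZT 7.39 with slide as a fixed block. A second Per1 probe, detected on 8 of 12 arrays, gave 0.26 and ZT 6.19.

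Usp2, a ubiquitin protease and clock output, was at 8.65, 8.59, 10.39, 10.61, 10.79 and 9.61, with an amplitude of 1.22 ± 0.35 and a peak at ZT 13.3 (limma adjusted p = 0.571). Tef was highest at ZT16, at 9.65, 9.63, 10.10, 10.47, 10.92 and 9.73, with an amplitude of 0.61 ± 0.22 and a peak at ZT 13.7 (limma adjusted p = 0.680). Alas1, the rate-limiting enzyme of haem synthesis, had an amplitude of 0.47 ± 0.18 and a peak at ZT 12.7 (limma adjusted p = 0.680). The peaks of Usp2 and Alas1 lay within 0.1 h of those in WT and that of Tef 1.8 h later, on the fitted curves. The SE of the Alas1 peak was 1.5 h. With slide as a fixed block the DKO peaks of Ciart, Dbp, Per2 and Alas1 were at ZT 10.7, 8.74, 10.7 and 11.1. These shifts are larger than 0.1 h.

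**Figure D1:**
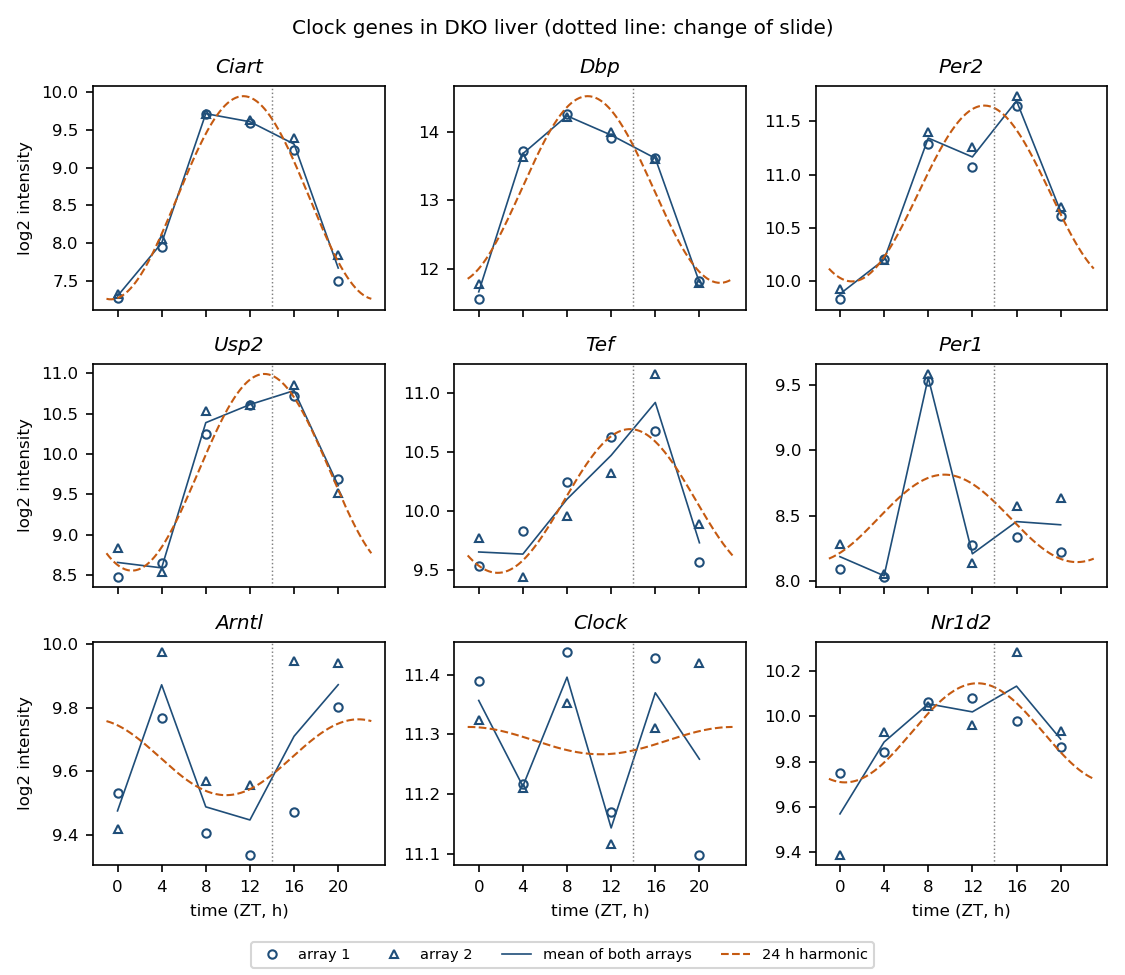
Normalized log2 intensity (vertical axes, each with its own range) against time of day in hours for 9 clock genes in DKO liver. Circles and triangles are the 2 arrays of a time, the line joins their means and the dashed curve is the 24 h cosine; Ciart, Dbp, Per2 and Usp2 span 1.81 to 2.57 log2 units, while Clock stays within 0.25.

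Most of the clock activators and receptors showed little daily variation in DKO. Arntl had an amplitude of 0.12 ± 0.36 and a range of 0.42 over the 6 times, Clock 0.02 ± 0.14 and 0.25, and Rora, a ROR receptor, 0.15 ± 0.14 and 0.66. Without ZT0 the amplitudes of Arntl and Rora were 0.29 and 0.31. Npas2, a relative of Clock, had 0.34 ± 0.15 and a peak at ZT 19.0, but was detected on 5 of 12 DKO arrays and on 0 WT arrays. It thus passed the detection filter only through DKO times. Nr1d2 had 0.22 ± 0.12, against 1.55 ± 0.12 in WT, with an unadjusted p of 0.000046 and a limma adjusted p of 0.190 for the difference. The exception in this group was Nr1d1, at 9.59, 11.03, 10.58, 9.77, 9.59 and 8.81. It was highest at ZT4 and lowest at ZT20, with an amplitude of 0.93 ± 0.29 and a peak at ZT 6.47 (limma adjusted p = 0.603), against 1.91 ± 0.29 and ZT 7.18 in WT. The sources used here do not place the Nr1d1 and Nr1d2 probes relative to the deleted exons, so their signals are no check of the deletion.

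Among the other clock genes, Nfil3, a repressor at D-boxes, had an amplitude of 0.22 ± 0.29 and Nampt, the NAD salvage enzyme, 0.15 ± 0.14. Cry2, a repressor detected on 6 of 12 arrays, had 0.33 ± 0.18, and Per3, detected on 2 of 12, had 0.45 ± 0.20 and 0.13 without ZT0. Bhlhe40, a repressor at E-boxes, was at 13.11, 12.41, 12.58, 12.01, 12.51 and 12.69, with its highest value at ZT0, where the sample stood apart. Its fitted peak was at ZT 23.4 in DKO and ZT 13.6 in WT (limma adjusted p of the difference 0.517). Prkaa2, the alpha 2 catalytic subunit of AMP-activated kinase, which marks CRY proteins for degradation, was at 8.35, 8.71, 9.56, 9.71, 9.18 and 8.80. It was lowest at ZT0 and highest at ZT12, with an amplitude of 0.66 ± 0.16 and a peak at ZT 11.5 (limma adjusted p = 0.481). The other 5 measured kinase and ubiquitin ligase genes, Csnk1d, Csnk1e, Csnk2a1, Gsk3b and Btrc, had amplitudes of 0.03 to 0.37.

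Over the 18 measured genes of the activator, repressor and output lists, the fitted amplitude was lower in DKO than in WT for 17, Rora being the exception, and for 18 under median scaling. The median amplitude was 0.36 in DKO and 1.13 in WT. In DKO 0 of the 18 passed the rhythm test after adjustment and 5 had an unadjusted p under 0.05, against 7.4% of all genes, and in WT 3 passed after adjustment. Of the 5, 3 kept an unadjusted p under 0.05 without ZT0 and 4 with slide as a fixed block. For the difference in rhythm 8 of the 18 had an unadjusted p under 0.05, against 6.19% of all genes, and under median scaling 9 of the 18, against 13.6%. The limma adjusted p of the difference ranged from 0.190 to 0.999. Npas2 is among the 17 and among the 8 (unadjusted p by limma 0.0421). Its WT amplitude of 0.63 was fitted to undetected values, so for Npas2 these comparisons say little. WT arrays lay on slides 2 and 3, so genotype and slide cannot be fully told apart in these differences.

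**Figure D2:**
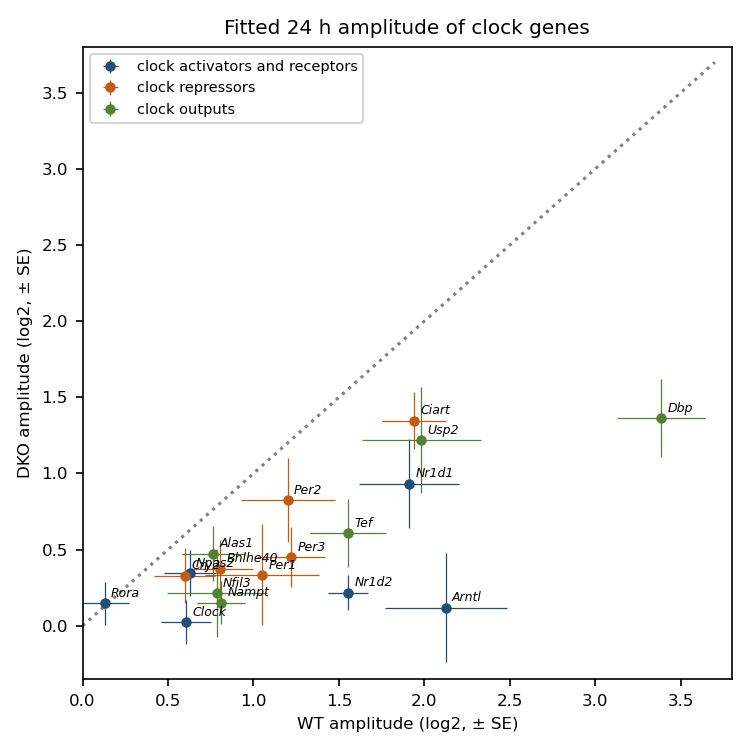
Fitted 24 h amplitude (log2, ± SE) of the 18 clock genes in DKO (vertical) against WT (horizontal), with colours for activators and receptors, repressors and outputs. On the dotted line both genotypes are equal. Of the 18 points 17 lie below it, with Dbp at 1.36 in DKO against 3.39 in WT, and the WT value of Npas2 rests on undetected signals.

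Across the transcriptome, 4 of 7272 genes passed the test of a 24 h rhythm in DKO liver (limma F test of cosine and sine terms, adjusted p under 0.05), which is 0.055% of the genes tested. At an unadjusted p under 0.05 there were 538 genes, 7.4% of those tested, where that threshold corresponds to 364 genes. The same fit called 13 genes (0.179%) in WT and 1001 (13.8%) at an unadjusted p under 0.05. The difference in rhythm between the genotypes passed for 0 genes by limma, with 450 (6.19%) at an unadjusted p under 0.05, and 989 (13.6%) under median scaling. No rhythm is therefore called particular to DKO.

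Lifr, the receptor for leukaemia inhibitory factor, a cytokine of the interleukin-6 family, was at 6.68, 8.01, 9.11, 8.30, 7.17 and 6.58 (SD between arrays 0.20). Arrays of ZT8 lay above all others, and ZT0 and ZT20 were lowest, with no array detected at either time. The amplitude was 1.27 ± 0.12 and the peak at ZT 8.67 ± 0.36 h (limma adjusted p = 0.0210), with ZT8 at least 4.70-fold above ZT20. In WT the amplitude was 0.40 ± 0.12, with a limma adjusted p of 0.360 for the difference.

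Mcm10, a replication factor that loads DNA polymerase, was at 12.82, 13.57, 14.20, 14.21, 13.27 and 12.95 (SD between arrays 0.11). It was detected on all 12 arrays, and ZT8 and ZT12 did not overlap the other times. The amplitude was 0.77 ± 0.08 and the peak at ZT 9.61 ± 0.42 h (limma adjusted p = 0.0395), and ZT12 was 2.62-fold above ZT0. A second probe gave an amplitude of 0.96 and a peak at ZT 9.45. The WT amplitude was 0.38 ± 0.08 with a peak 1.0 h earlier (limma adjusted p of the difference 0.679). Mcm10 was the only gene called among the 12 measured of 25 genes for DNA replication and cell cycle, whose median amplitude was 0.29, against 0.16 for all genes.

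Rgs5 and Arhgap25 had the opposite phase. Rgs5, a regulator of G protein signalling known from pericytes, was at 7.48, 7.11, 6.14, 5.91, 6.48 and 7.42 (SD between arrays 0.43). The amplitude was 0.86 ± 0.08 with a peak at ZT 23.2 ± 0.3 h (limma adjusted p = 0.0210), but its 2 arrays overlapped between several times. The probe was detected on 5 of 12 arrays, and ZT0 is bounded at 1.41-fold or more above ZT12. These SE reflect the spread of the averages around the curve. With an SD between arrays of 0.43 they can understate the error. The other 5 measured genes of the stellate cell, pericyte and smooth muscle list did not pass. Arhgap25, a GTPase-activating protein for Rac known from blood cells, was at 7.59, 6.56, 5.96, 5.63, 6.34 and 7.36 (SD between arrays 0.18). Its amplitude was 0.98 ± 0.10 with a peak at ZT 22.6 ± 0.4 h (limma adjusted p = 0.0395). The probe was detected on 4 of 12 DKO arrays and on 0 WT arrays, and ZT0 was at least 1.52-fold above ZT12. Arhgap25 thus passed the detection filter only through DKO times, among them ZT0, its highest. Its call is therefore not independent of that filter. Both were high at ZT0 and ZT20, and without ZT0 their amplitudes were 0.94 and 0.92.

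The 4 calls depended on the set of times. Without ZT0 the limma adjusted p was 0.106 for Lifr and Rgs5 and 0.276 for Mcm10 and Arhgap25, with amplitudes of 1.21 and 0.73 for Lifr and Mcm10. The same happened when ZT8, ZT12, ZT16 or ZT20 was left out, while without ZT4 Lifr, Rgs5 and Arhgap25 kept their calls at 0.0318 and Mcm10 had 0.0929. With slide as a fixed block none of the 4 passed, although their amplitudes remained 1.48, 0.75, 0.85 and 1.01 in the order Lifr, Mcm10, Rgs5 and Arhgap25. In the promoter windows of the 4 genes, 6 in all, no E-box and no D-box was found, and AGGTCA was found in 1 window of Lifr, 247 bases before the start.

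**Figure D3:**
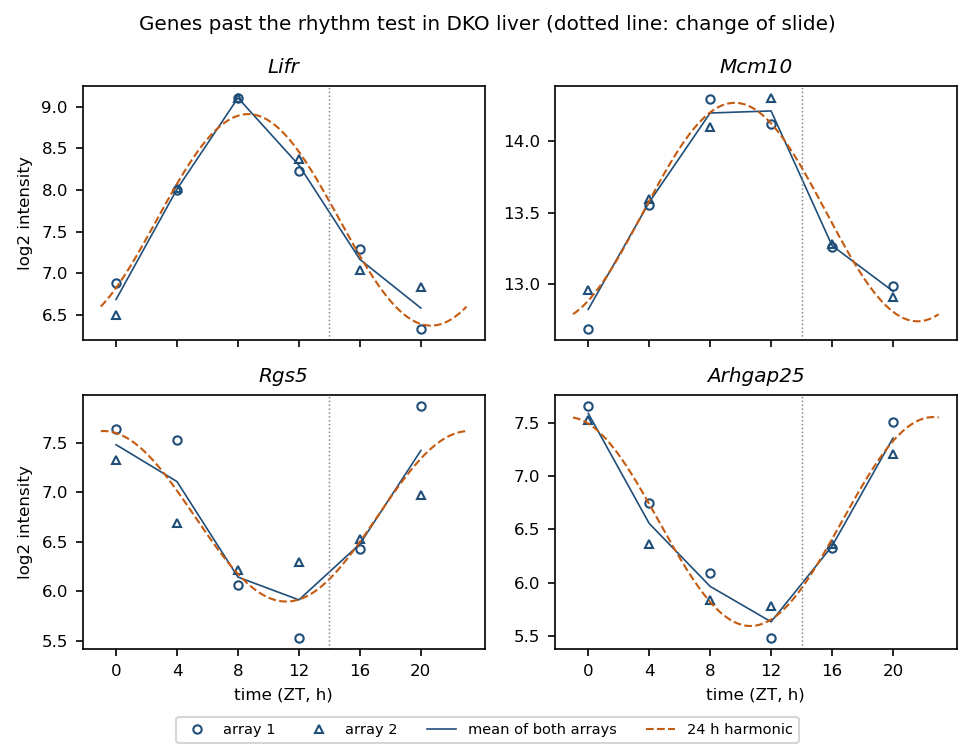
Normalized log2 intensity (vertical) against time of day in hours for the 4 genes past the rhythm test in DKO liver, with both arrays, their mean and the fitted 24 h cosine. Lifr and Mcm10 are highest at ZT8 to ZT12 and Rgs5 and Arhgap25 at ZT20 to ZT0, and the dotted line marks the change of slide.

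The 538 genes with an unadjusted p under 0.05, which are described here as a set and not as calls, had a median amplitude of 0.43. Their fitted peaks fell into ZT21 to ZT3 for 187 genes (34.8%), ZT3 to ZT9 for 90 (16.7%), ZT9 to ZT15 for 160 (29.7%) and ZT15 to ZT21 for 101 (18.8%). Among all 7272 genes the corresponding shares were 26.4, 25.6, 25.8 and 22.2%. The 341 of them detected on all 12 arrays had 34.6% of peaks in ZT21 to ZT3 and 34.9% in ZT9 to ZT15, and a fit without ZT0 gave 31.9 and 30.9%. With slide as a fixed block 746 genes (10.3%) had an unadjusted p under 0.05 and the most frequent window became ZT15 to ZT21 with 37.4%, while the shares over all genes moved to 15.8, 34.8, 17.1 and 32.3%. The order of the 6 h windows thus depended on how slide was treated, and for single genes 462 of the 538 kept a peak within 3 h. Of the 538, 315 also had an unadjusted p under 0.05 with the slide term, and 317 without ZT0.

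**Figure D4:**
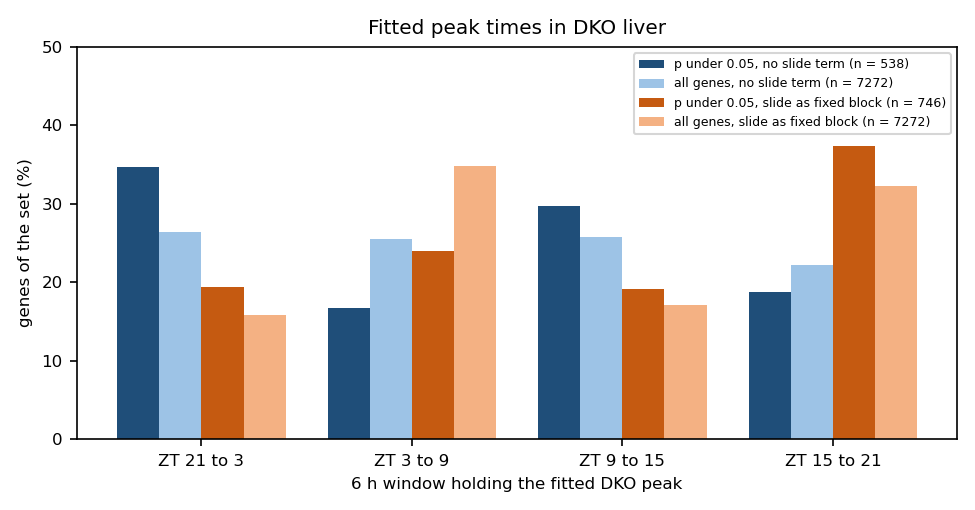
Share of genes (%, vertical) by the 6 h window that holds the fitted DKO peak, for genes with an unadjusted p under 0.05 and for all genes, without (blue) and with (orange) slide as a fixed block. Without a slide term 34.8% of the 538 genes peak at ZT21 to ZT3 and 29.7% at ZT9 to ZT15; with it the leading window is ZT15 to ZT21.

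Of the 538 genes, 172 also had an unadjusted p under 0.05 in WT, which is 32.0% of the DKO set and 17.2% of the 1001 in the WT set. For 97 of the 172 (56.4%) the fitted peaks lay within 3 h of each other, and the corresponding share over all genes was not counted. The median amplitude over all genes was 0.16 in DKO and 0.19 in WT. An amplitude over 0.5 was reached by 358 genes in DKO and 517 in WT, and an amplitude over 1 by 48 and 68.

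At an unadjusted p under 0.01 there were 144 genes, 1.98% of those tested, and the largest amplitudes among those detected on all 12 arrays are described by 6 h window. Between ZT9 and ZT15 the largest amplitudes included genes outside the clock. Serpina4-ps1, a serpin pseudogene, was at 7.47, 8.95, 10.37, 11.14, 9.46 and 7.13 (SD between arrays 0.16). It was highest at ZT12 and 16.1-fold lower at ZT20, with an amplitude of 2.01 ± 0.30 and a peak at ZT 10.5 (limma adjusted p = 0.201), where WT had 0.22 ± 0.30 (limma adjusted p of the difference 0.517). Slc25a30, a mitochondrial carrier, was at 7.78, 9.16, 10.70, 10.47, 8.64 and 7.99, with an amplitude of 1.57 ± 0.20 and a peak at ZT 9.57 (limma adjusted p = 0.110). Its ZT8 and ZT12 arrays lay above all others, and the WT amplitude was 0.28 ± 0.20 (limma adjusted p of the difference 0.505). Nrep was at 9.13, 11.14, 11.88, 11.95, 10.70 and 10.47, with an amplitude of 1.22 ± 0.23 in DKO and 1.13 ± 0.23 in WT and a DKO peak at ZT 10.3 (limma adjusted p = 0.408). With slide as a fixed block the amplitudes of Serpina4-ps1, Slc25a30 and Nrep were 1.89, 1.57 and 1.57, and without ZT0 that of Nrep was 0.86.

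Cish and Socs2, feedback inhibitors of growth hormone signalling, had their highest values at ZT8 and ZT12. Cish, an inhibitor of STAT5 signalling, was at 10.13, 11.13, 12.24, 11.91, 11.21 and 9.97, with an amplitude of 1.17 ± 0.26 and a peak at ZT 9.82 (limma adjusted p = 0.423). It was lowest at ZT20 and ZT0 on different slides, and the slide term left an amplitude of 1.25. Socs2, a related inhibitor, was at 11.41, 11.57, 12.04, 12.39, 9.85 and 9.47. Its values were lower on slide 2, at -2.19 log2 relative to slide 1, and its amplitude of 1.32 ± 0.33 became 0.48 with slide as a fixed block. Of the 11 measured growth hormone axis genes, 2 had an unadjusted p under 0.05, against 7.4% of all genes, and 7 of 11 were lowest at ZT20, against 17.7%.

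A joint list held genes of amino acid stress and of stress of the endoplasmic reticulum, where secreted proteins fold. Its genes mostly had their lowest values at ZT20 or ZT0. Of 16 measured genes of this list, 5 had an unadjusted p under 0.05, against 7.4% of all genes, and 0 passed after adjustment. At ZT0 or ZT20 11 of the 16 were lowest, 6 and 5 genes in turn, against 40.8% of all genes. Creld2, a chaperone-like protein, was at 10.90, 13.15, 12.50, 13.24, 11.71 and 10.86, with an amplitude of 1.21 ± 0.29 and a peak at ZT 8.84 (limma adjusted p = 0.470). A second Creld2 probe gave 1.18 and ZT 9.10, and without ZT0 the amplitude was 1.06. Hspa5, the chaperone BiP, had 0.51 ± 0.16 with a peak at ZT 11.4, and Pdia4, a disulfide isomerase, 0.42 ± 0.14 with a peak at ZT 8.00. WT Creld2 had an amplitude of 1.00 ± 0.29 and a fitted peak 4.2 h earlier, at ZT 4.59, with an unadjusted p of 0.0498 and a limma adjusted p of 0.788 for the difference. Gadd45g, a stress-response gene from the immediate early list, was at 12.51, 13.77, 13.74, 14.52, 13.02 and 11.97, with an amplitude of 1.11 ± 0.20 and a peak at ZT 9.27 (limma adjusted p = 0.408), against 0.26 ± 0.20 in WT (limma adjusted p of the difference 0.517).

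Between ZT3 and ZT9 the named genes outside these lists had smaller amplitudes. Pla2g12a, a secreted phospholipase, was at 11.59, 11.74, 12.17, 11.94, 11.27 and 10.84, with an amplitude of 0.58 ± 0.11 and a peak at ZT 7.78 (limma adjusted p = 0.408) in DKO and 0.63 ± 0.11 in WT. With slide as a fixed block its DKO amplitude was 0.34. Tuft1 was at 10.34, 10.26, 11.47, 11.40, 9.86 and 9.95, high at ZT8 and ZT12 alone, with 0.78 ± 0.19 and ZT 8.96 (limma adjusted p = 0.496). Mrnip, a factor in DNA break repair, was highest at ZT4, at 9.93, and lowest at ZT20, at 8.75, with 0.58 ± 0.15 in DKO and 0.97 ± 0.15 in WT. Klf9, a transcription factor induced by glucocorticoids, had 0.31 ± 0.10 with a peak at ZT 8.35, and 0.30 ± 0.10 in WT.

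Glycogen and lipid genes divided by phase. Gys2, liver glycogen synthase, was at 9.15, 9.53, 9.69, 10.50, 9.93 and 9.23, with an amplitude of 0.59 ± 0.12 and a peak at ZT 11.9 (limma adjusted p = 0.415), near the 0.70 ± 0.12 and ZT 12.6 of WT. Ppp1r3c, a subunit that brings a phosphatase to glycogen, was opposite, at 14.69, 14.50, 13.79, 13.18, 14.27 and 14.25, with 0.62 ± 0.20 and ZT 23.6 (limma adjusted p = 0.612). Its WT amplitude was 1.62 ± 0.20, with a limma adjusted p of 0.632 for the difference. Thrsp, a lipogenic regulator, was at 11.37, 12.93, 13.75, 14.35, 14.31 and 13.51, with 1.31 ± 0.45 and ZT 13.0 (limma adjusted p = 0.667), and without ZT0 its amplitude was 0.84. Of the 13 measured lipogenic genes, 8 had a fitted peak at ZT15 to ZT21, against 22.2% of all genes. In ZT21 to ZT3 there was 1, Elovl5, which was highest at ZT0, with 0.36 ± 0.12 and ZT 23.1 (limma adjusted p = 0.647). At ZT16 or ZT20, on slide 2, 9 of the 13 were highest, 5 and 4 genes in turn, against 32.2% of all genes.

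Both named bile acid transporters had fitted peaks late in the light phase. Slc10a1, which takes up bile acids from blood, was at 6.95, 7.98, 7.88, 8.14, 7.70 and 7.24, with 0.52 ± 0.11 and ZT 9.98 (limma adjusted p = 0.423). The Slc10a1 probe was detected on 10 of 12 arrays, its SD between arrays was 0.37, and its arrays overlapped between several times. Slco1b2, an organic anion carrier, had 0.38 ± 0.13 and ZT 11.5. Stard4, which carries cholesterol inside the cell, had 0.48 ± 0.10 and ZT 9.47 (limma adjusted p = 0.423), near the 0.56 ± 0.10 and ZT 8.41 of WT. The mean over the 15 measured genes of cholesterol synthesis was 11.06, 11.14, 11.18, 11.71, 10.66 and 11.15. Of these, 11 were highest at ZT12, against 15.8% of all genes, and 11 lowest at ZT16, against 17.6%. All 15 were lower at ZT16 than at ZT12, by a median of 0.92 log2, where the median over all genes was 0.02. These times lie on different slides and this difference has 1 RNA sample on each side, so it has no test. Mvd, mevalonate diphosphate decarboxylase, was at 9.10, 9.83, 9.88, 10.40, 8.84 and 9.25.

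Genes of xenobiotic metabolism were higher on slide 2. All 17 measured genes of the list had a higher mean at ZT16 and ZT20 than at ZT0 to ZT12, by a median of 0.60 log2, where the median over all genes was -0.01. Their fitted peaks fell into ZT15 to ZT21 for 12 of 17, against 22.2% of all genes. Cyp2b10, a cytochrome induced through the receptor CAR, was at 8.61, 8.68, 8.87, 9.20, 11.22 and 10.40. It varied by 0.59 within slide 1 and its amplitude of 1.23 ± 0.39 became 0.40 with slide as a fixed block. Cyp3a11, a cytochrome induced through the receptor PXR, was at 15.23, 15.02, 15.22, 15.31, 15.88 and 16.00, with amplitudes of 0.47 and 0.17 in turn. Fmo5, a flavin monooxygenase, was at 12.91, 12.56, 12.59, 12.36, 13.66 and 13.69, with 0.66 and 0.20. Further named genes with this step were Me1, malic enzyme, at 11.01, 10.98, 10.92, 11.50, 12.36 and 11.61, and Mdh2, mitochondrial malate dehydrogenase, with amplitudes of 0.66 ± 0.22 and 0.46 ± 0.11 that became 0.45 and 0.26. Rhythm and slide cannot be told apart for these genes within DKO. In WT, where ZT8 to ZT20 shared slide 3, 15 of the 17 had a higher mean at ZT16 and ZT20 than at ZT8 and ZT12, by a median of 0.30 log2 over the 17, against -0.02 over all genes. From ZT8 to ZT20 in WT, Fmo5 was at 12.91, 12.89, 13.95 and 13.90, Me1 at 12.23, 11.72, 12.32 and 12.58, and Mdh2 at 11.09, 11.08, 11.20 and 11.36. The later times were higher by more in Fmo5 than in Me1 and Mdh2, and Me1 at ZT8 was close to its ZT16 value.

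A gene of the same evening phase with more variation inside a slide was Cyp4a14, a fatty acid omega-hydroxylase induced through PPAR alpha, at 11.16, 10.31, 9.12, 10.48, 11.88 and 12.13 (SD between arrays 0.14). It was lowest at ZT8 and highest at ZT20, 8.07-fold apart, with a peak at ZT 19.3. Its amplitude of 1.40 ± 0.32 (limma adjusted p = 0.470) was 1.36 with the slide term and 1.44 without ZT0, and WT had 1.02 ± 0.32 at ZT 16.7. Cyp1a2, a further cytochrome, had its peak earlier, at ZT 11.9, with 0.53 ± 0.13 (limma adjusted p = 0.496). Without ZT0 its amplitude was 0.33, and with the slide term its peak was at ZT 9.56.

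In the window from ZT21 to ZT3 most of the named genes were highest at ZT0, the sample with high leukocyte markers and high Hba-a1. Cxcl1, a chemokine that attracts neutrophils, was at 13.90, 12.27, 11.10, 10.90, 10.90 and 12.11 (SD between arrays 0.05). It was high at ZT20, ZT0 and ZT4 and 8.02-fold lower at ZT12 than at ZT0, with an amplitude of 1.40 ± 0.27 and a peak at ZT 0.27 (limma adjusted p = 0.415). It was the only gene called with slide as a fixed block, at a limma adjusted p of 0.0443, and without ZT0 its amplitude was 0.97. Ccl4, a macrophage chemokine, was at 10.51, 8.11, 8.27, 7.91, 9.09 and 9.40, with 1.08 ± 0.24, and 0.73 without ZT0. Hbb-bt, a beta globin, was at 11.50, 8.95, 8.90, 8.28, 8.90 and 10.17, with 1.34 ± 0.26, and 0.86 without ZT0. All 3 were highest at ZT0, and so was Efna1. Efna1, an ephrin ligand, was at 11.73, 10.55, 9.01, 9.63, 9.62 and 10.16, with 1.05 ± 0.26 and 0.67 without ZT0.

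Most immediate early genes had fitted peaks in the same window. Of 9 measured immediate early genes 8 were among them, against 26.4% of all genes. The ninth, Gadd45g, had its fitted peak at ZT 9.27 and had the lowest p of the list (unadjusted p by limma 0.00105). With Fos and Junb it made up the 3 with an unadjusted p under 0.05, against 7.4% of all genes. The median amplitude was 0.75 in DKO and 0.25 in WT, where all genes had 0.16 and 0.19. Fos was at 8.58, 7.42, 6.30, 6.97, 6.66 and 8.58, equally high at ZT0 and ZT20 on different slides, and its amplitude was 1.13 ± 0.28 (limma adjusted p = 0.496) and 1.06 without ZT0. Fos was detected on 6 of 12 arrays, with ZT0 at least 2.82-fold above ZT8. Junb had 0.77 ± 0.21 with a peak at ZT 0.98, and 0.68 without ZT0. Socs3, the inhibitor of interleukin-6 signalling, was at 11.77, 11.20, 9.70, 10.04, 9.64 and 9.52, with 0.95 ± 0.30 and ZT 2.12, and 0.63 without ZT0. Sgk1, a kinase gene induced by glucocorticoids, was at 12.97, 12.41, 11.79, 12.02, 11.98 and 12.72, with 0.56 ± 0.13 and ZT 23.0, and 0.49 without ZT0. Wfdc15b, a small secreted protease inhibitor, was highest at ZT20 and not at ZT0, at 10.07, 9.95, 8.83, 8.39, 8.50 and 10.46, with 1.07 ± 0.24 and 1.32 without ZT0.

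The daily range rule, a range of at least 1 log2 unit with both arrays of the highest time above both of the lowest and detection on both arrays of the highest, was met by 1049 genes, 14.4% of those tested. This is a count with no test, since each time is 1 RNA sample. Of the 1049, 796 had no unadjusted p under 0.05 for a 24 h cosine, and 253 had one. Within slide 1 alone 648 genes (8.91%) met the rule, and without ZT0 650 (8.94%). ZT0 was an extreme for 582 of the 1049, being the highest time for 360 and the lowest for 222, while each other time was the highest for 92 to 185. Among the clock lists 10 of 18 genes met the rule, 5 of 6 repressors, 4 of 6 outputs and 1 of 6 activators and receptors. Counts were 8 of 9 for immediate early genes, 10 of 15 for cholesterol synthesis and 10 of 17 for xenobiotic metabolism. They were 8 of 16 for reticulum and amino acid stress, 7 of 15 for the acute phase, and 0 of 6 for hepatocyte markers. Of the hepatocyte markers, Ttr, Apoa1, Cyp2e1 and Trf lay near the top of the scale and Alb near background. Such probes could hardly meet the rule, so this count does not measure how far their transcripts varied.

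**Figure D5:**
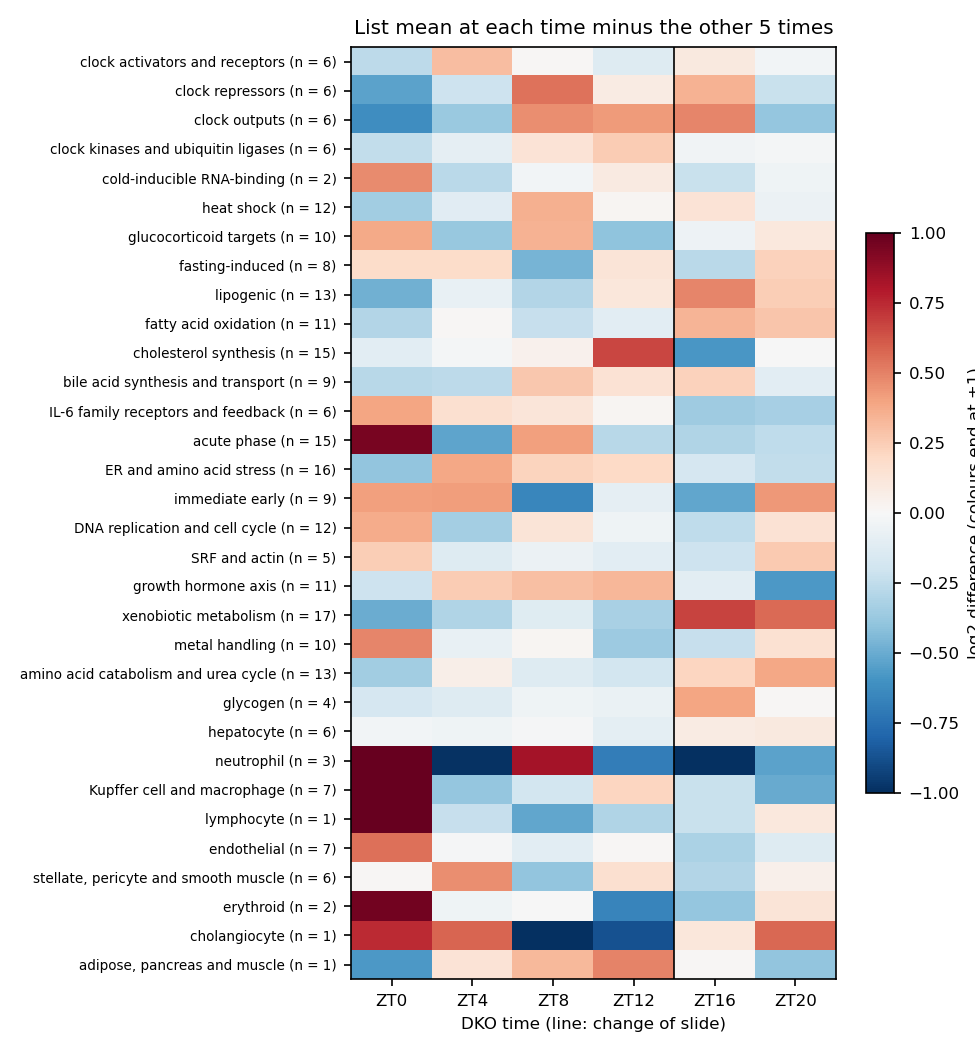
Mean of each gene list at a DKO time minus its mean at the other 5 times (log2, colour; colours end at 1), with the number of genes measured and a line at the change of slide. Neutrophil markers stand 2.44 higher at ZT0, cholesterol synthesis is highest at ZT12 and lowest at ZT16, and xenobiotic metabolism is higher at ZT16 and ZT20.

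The largest ranges inside slide 1 were mostly those of the ZT0 sample. Lcn2, an acute phase protein that is also a neutrophil granule protein, was at 14.39, 9.15, 12.65 and 9.98 from ZT0 to ZT12, and Orm2, another acute phase protein, at 14.59, 11.19, 13.52 and 11.21. Both were high at ZT0 and ZT8 and low at ZT4 and ZT12, a course that a 24 h cosine cannot follow (amplitudes 0.90 ± 0.83 and 0.86 ± 0.57, with 0.55 for Lcn2 without ZT0). The neutrophil marker S100a8 was at 12.16, 9.60, 10.45 and 9.97 at the same times, and its part in those values was not tested. Cxcl13, a chemokine that attracts B cells, was at 11.83, 7.69, 7.43 and 8.40, and Dnajc12, a co-chaperone, at 12.42 at ZT0 and 8.87 to 9.18 at ZT4 to ZT12, both high at ZT0 alone. Obp2a, a lipocalin, alternated, at 11.77, 9.87, 12.46, 8.93, 12.73 and 10.96.

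Between the 2 times of slide 2, Esm1, an endothelial proteoglycan gene, was 2.54 log2 units higher at ZT20 than at ZT16, Egr1, an immediate early factor, 2.11 and Slpi, a protease inhibitor, 2.03 (arrays not overlapping, no test). Lower at ZT20 were Moxd1, a copper monooxygenase-like gene, with a difference of -3.11, Cd163, a macrophage scavenger receptor, with -2.44, and Serpina4-ps1 with -2.33. Cd163 was at 9.45, 8.15, 9.75, 10.65, 9.75 and 7.31 over the day, with an amplitude of 1.10 ± 0.42 and a peak at ZT 11.1 (limma adjusted p = 0.680). Without ZT0 its amplitude was 1.99. Its profile differed from that of the macrophage marker Adgre1, which was highest at ZT0, at 11.11, and at 9.80 to 10.11 otherwise. Moxd1 was at 11.73, 11.66, 13.27, 12.59, 12.05 and 8.94, with an amplitude of 1.56 ± 0.92 (limma adjusted p = 0.833).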

How the data were processed

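Livers of 12 genotype and time groups were measured on Illumina bead arrays. Per the file headers, the deposited values are a probe's mean bead intensity (linear, not normalized between arrays), and the deposited detection p-value sets a probe against negative controls of its array. Per the submitters' processing notes, GenomeStudio was used. The authors' processed intensity table served as an alternative. The sources used here do not name its normalization.

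Normexp background correction (from detection p-values, offset 16), quantile normalization and log2 were run in limma 3.58.1 (R 4.3.3). Of 25697 probes, 23978 had 1 gene symbol, 0 several and 1719 none. A probe was kept when at least 2 of 12 groups had both arrays detected at p under 0.01 (10243 probes), and the probe with the highest mean was used per symbol, giving 7272 genes. Folds against times with no detected array are bounds against the lowest detected signal of each array. The fit to the 12 averages held a genotype mean and a 24 h cosine and sine per genotype (6 residual and 3.32 prior degrees of freedom), without a slide term, and limma's F test was adjusted by Benjamini-Hochberg over all genes. The daily range rule used 1 log2 unit and no test. The 6 values per genotype limit the precision.

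Named genes were those past the rhythm test, all measured clock genes, Ciart, Dbp, Per2 and Lifr, up to 3 per other list with an unadjusted p under 0.05 by amplitude (otherwise the largest amplitude), the 5 largest amplitudes per 6 h window of the peak among genes with an unadjusted p under 0.01 and detection on all 12 arrays, the 6 largest ranges on slide 1, and the 3 furthest up and down from ZT16 to ZT20. The genes, lists and tests were chosen with earlier results of these data known. The fitting code was tested on simulated data. Alternatives changed background, normalization, filter, probes, slide, arrays, variance, period, and left out times or arrays.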

Additional observations from a re-analysis of the deposited data

How the results depend on the processing

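The count of 4 rhythmic genes changed with most settings and the difference count of 0 with few. Lifr kept its call in 19 of 37 alternatives (limma adjusted p 5.75e-05 to 0.408, peak ZT 8.24 to 8.90), Mcm10 in 14 of 38 (5.75e-05 to 0.440, ZT 9.43 to 10.1), Rgs5 in 13 of 37 (0.0118 to 0.408, ZT 22.6 to 23.7) and Arhgap25 in 12 of 37 (0.0207 to 0.408, ZT 22.4 to 23.1). Their amplitudes ranged from 0.62 to 1.48, 0.72 to 0.85, 0.32 to 0.99 and 0.35 to 1.06 log2 in turn, lowest with no background correction for all but Mcm10. Rhythm counts were 1 with no background correction, 1 with the authors' values, 1 with slide as a fixed block, 7 with all kept probes, and 0 with probes detected on all 12 DKO arrays (406 at an unadjusted p under 0.05 by limma), with the 6 DKO averages alone (489), with these and slide (656) and with a 12 h harmonic (245). The filter on all 12 DKO arrays itself removed Lifr, Rgs5 and Arhgap25, so of the 4 genes only Mcm10 was tested again there. Leaving out DKO ZT0, ZT8, ZT12, ZT16 or ZT20 gave 0 (580, 517, 591, 397 and 444), and ZT4 gave 4. Leaving out a time in both genotypes gave 2 for ZT4 and 0 for ZT0, ZT8, ZT12, ZT16 and ZT20 (668, 500, 559, 349 and 462). With arrays as separate samples and the RNA sample as a random block (correlation 0.584) counts were 79 for rhythm and 44 for the difference, and with the replicate number as a block 60 and 33. The replicate numbers do not pair the times, since array differences correlated at -0.040 to 0.041 between times. Slide as a fixed block gave 1 gene for the difference, and settings other than these 3 gave 0. Leaving out 1 array gave 0 to 4 for rhythm and 0 to 0 for the difference. The rhythm count was 0 without array 1 of ZT0 or of ZT20, 1 without array 1 of ZT12 or array 2 of ZT20, 2 without either array of ZT4, and 3 or 4 without any other. The daily range count of 1049 was 336 without background correction, 333 with the authors' values, 569 with probes detected on all 12 arrays, 650 without ZT0, 648 on slide 1, 3034 at 1.5-fold and 279 at 3-fold, and 1082 to 1174 without 1 array. Signals near background limit, among others, Rgs5, Arhgap25, Fos, Cry2, Per3, Npas2 and the low times of Lifr, and each time is 1 RNA sample.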
